A study of Mus musculus with 16 samples.

Results

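Nodal, Lefty and activin signalling was examined across the miR-302 series through 10 genes chosen by name out of the 24421 in the deposited tables. They are the ligands Nodal and Gdf3, the secreted inhibitors Lefty1 and Lefty2, the co-receptor Tdgf1 (also called Cripto), the type II receptors Acvr2a and Acvr2b, the signal transducers Smad2 and Smad4, and the transcription factor Foxh1. The series compares mouse embryos that lack miR-302 (KO), a microRNA cluster of pluripotent cells and the early embryo, with wild-type embryos (WT), all of the C57BL/6 strain. RNA came from whole embryos at embryonic day 7.5 (E7.5; 2 KO and 2 WT libraries), from Wnt1-Cre+ cells sorted at E8.5 (4 KO and 3 WT libraries) and from Sox10+ cells sorted at E9.5 (2 KO and 2 WT libraries). Both sorts are labelled neural crest, the migratory population that arises at the dorsal neural tube. A further E8.5 KO library, titled KO4_5s, was not analysed here, and the library called WT1 at E8.5 is titled WT1_5s. The labels give neither the KO allele nor which libraries came from separate animals, so p-values measure only the spread between these samples, which may be technical.

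Nodal is a secreted ligand of the TGF-beta family. It binds Acvr2a or Acvr2b together with a type I receptor and a co-receptor of the Cripto family, and the activated receptors phosphorylate Smad2 and Smad3, which join Smad4 and act on genes with partners such as Foxh1. Lefty1 and Lefty2 are targets of the pathway and block the ligand, which closes a negative feedback loop. In the mouse embryo the pathway is known for its part in forming the primitive streak, mesoderm and endoderm and in placing the left-right axis. The type II receptors and Smad4 also carry activin, growth differentiation factor and BMP signals.

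Because the KO removes a microRNA, the 3′UTRs of the members were searched for matches to the miR-302 seed. The mature sequences below, credited to RefSeq (build GRCm38.p6), are shown because their seed, bases 2 to 8 in capitals, defines the match that was searched.
mmu-miR-302b-3p: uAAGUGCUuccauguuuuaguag
mmu-miR-302c-3p: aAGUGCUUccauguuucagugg
mmu-miR-302d-3p: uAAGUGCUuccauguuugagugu
The entries of miR-302b and miR-302d share the seed AAGUGCU, which was the one searched, and that of miR-302c reads AGUGCUU over the same bases. miR-302a-3p belongs to the same cluster. The entries of miR-291a-3p and miR-294-3p, on chromosome 7, hold the searched seed too, so a match is not particular to miR-302. An 8mer match was the letters AGCACTTA, a 7mer match AGCACTT or GCACTTA, and a 6mer match GCACTT, on the transcript strand of the longest annotated 3′UTR, with each site counted once under its longest match.

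Both Lefty genes hold an 8mer match. The sites below are shown because the longest matches among the 10 genes lie in the inhibitors, with shorter ones in Nodal and Acvr2a. Capitals mark the match, and lower-case letters the 10 bases before it and the bases that follow it.
Lefty1: ctgtatgcgaAGCACTTAcatgtataga
Lefty2: acccagtttaAGCACTTAcatgggtaaa
Nodal: agagaggtggGCACTTgtccaagagggg
Acvr2a: aggtttgcttGCACTTgtaagctaatca
In mm10 coordinates (GENCODE M21), these stretches lie on the plus strand in the 3′UTRs at chr1:180938203-180938230 for Lefty1, chr1:180897907-180897934 for Lefty2, chr10:61425222-61425249 for Nodal and chr2:48901698-48901725 for Acvr2a. The Lefty1 match starts at base 238 of a 3′UTR of 425 bases and the Lefty2 match at base 104 of 1290 bases. Smad2 holds 3 7mer matches, and no match of these letters was found in the longest 3′UTRs of Gdf3, Tdgf1, Acvr2b, Smad4 and Foxh1. Over 21186 genes with a 3′UTR, an 8mer match is present in 3.035% of genes, a 7mer or 8mer match in 18.38%, and a 6mer or longer match in 29.82%. A match is a stretch of letters and not a measured binding site.

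The libraries held 4912827 to 14861728 reads assigned to genes. The miR-302a to miR-302d genes had 0 and 0 reads in the E7.5 KO libraries, against 14 and 25 in the WT libraries, and at later stages 1 read was found in E8.5 WT1 and 1 in E9.5 WT2. These reads check the E7.5 labels only, since the later WT libraries hold almost none. Wnt1 lay at 313 to 1094 normalised counts in the E8.5 KO libraries and 503 to 543 in WT, and Sox10 at 511 to 1165 in the E9.5 KO libraries and 639 to 722 in WT, so the genes behind each sort were present in all sorted libraries. Values below are the authors' normalised read counts, that is, reads divided by 1 factor per library, unless given as reads, as reads scaled to a library of 1000000 reads (RPM) or as RPM per kilobase of exon (RPKM). KO was compared with WT within a stage by limma on log2(value + 1), for genes with a stage mean of at least 10, with Benjamini-Hochberg adjustment over all genes tested and a threshold of 0.05. Fold changes refer to that scale, so those of low genes come out smaller than the ratio of the values.

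**Figure D1:**
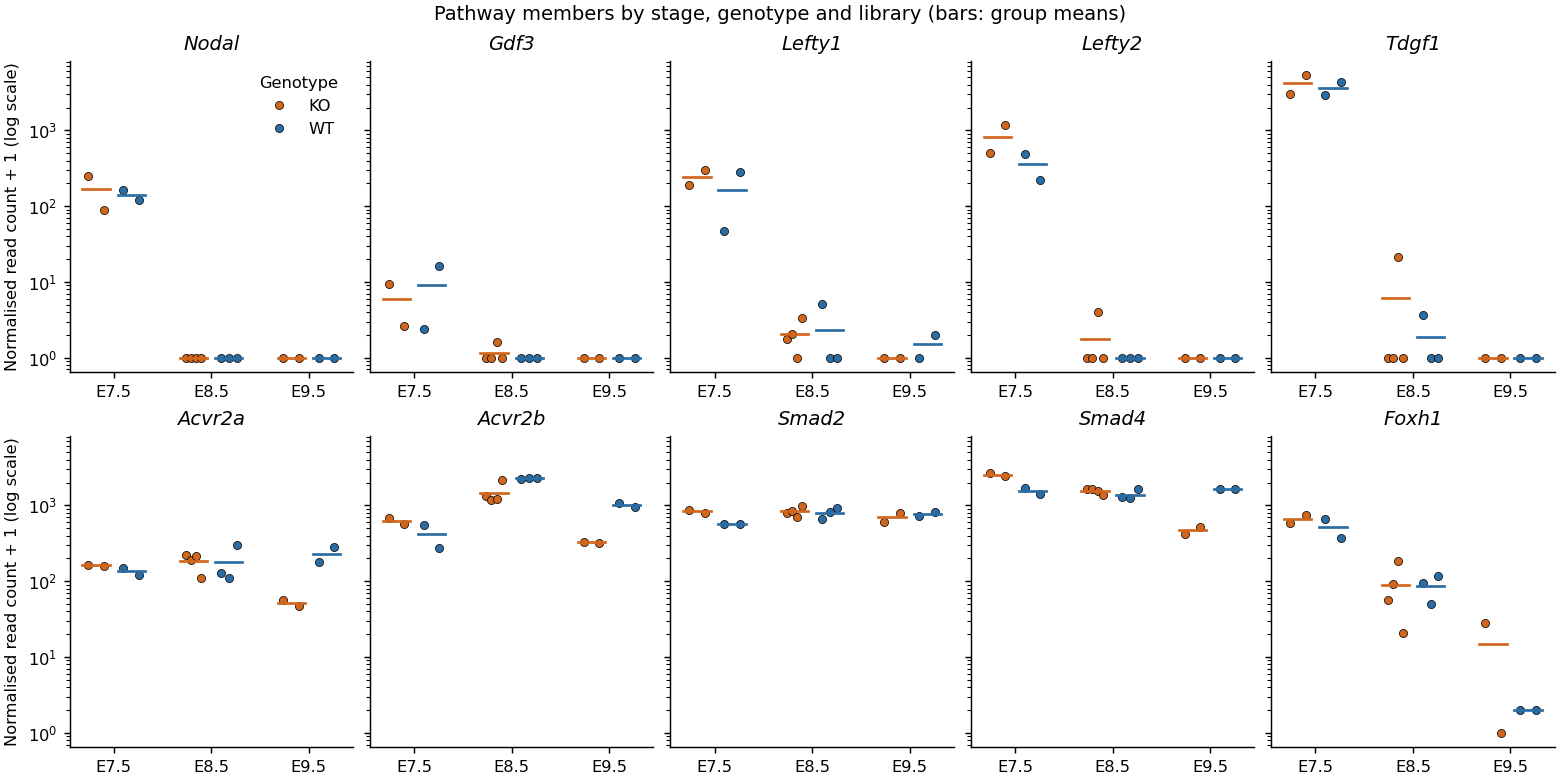
Normalised read count + 1 (log axis) of the 10 pathway genes in each library, by stage, with KO (orange) left of WT (blue) and bars at group means. Nodal, Lefty1, Lefty2 and Tdgf1 were between 46.4 and 5337 in E7.5 embryos and at or near 0 in the sorted cells, whereas the receptors and Smads were present at each stage.

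The clearest pattern across stages was a split within the pathway between the early ligand and feedback genes and the receptors and transducers. Nodal had 288 reads in the E7.5 KO libraries together and 323 in WT, and 0 reads in each of the 11 sorted libraries. In WT, Nodal averaged 20.5 ± 6.2 RPM at E7.5 (SD, n = 2) and was at least 192-fold lower at E8.5 and at least 151-fold lower at E9.5, bounds set by 3 reads over the WT group. From the lower WT library, WT2, the bounds were 151-fold at E8.5 and 119-fold at E9.5. In KO the E7.5 mean was 24.4 ± 17.0 RPM (SD, n = 2), and the bounds were 376-fold and 170-fold; taken from the lower KO library, KO2, they were 191-fold and 86.4-fold. These are levels in different cell populations, whole embryos and sorted cells, from tables normalised separately, so they are given with no test.

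Tdgf1, the co-receptor, was the highest member per kilobase at E7.5, with 229 ± 84 RPKM in KO and 198 ± 37 RPKM in WT (SD, n = 2 each). From its mean, it was at least 4189-fold lower in the E9.5 KO group and at least 3833-fold lower in the E9.5 WT group, where 0 reads were counted. From the lower E7.5 library of each genotype, KO1 and WT1, the bounds were 3101-fold and 3324-fold. Lefty2, at 118 ± 65 RPM in KO and 53.2 ± 32.8 RPM in WT at E7.5 (SD, n = 2 each), was at least 827-fold lower in E9.5 KO and at least 393-fold lower in E9.5 WT, also on 0 reads. Taken from the lower E7.5 library of each genotype, KO1 and WT2, these bounds were 508-fold and 222-fold. Lefty1 had 2 reads in E9.5 WT2 and 0 reads in the other 3 E9.5 libraries. Foxh1 took an intermediate course. It averaged 95.04 ± 13.5 RPM in KO and 76.0 ± 37.1 RPM in WT at E7.5 (SD, n = 2 each), and 9.70 ± 9.27 RPM in KO (n = 4) and 8.15 ± 4.37 RPM in WT (n = 3) at E8.5. At E9.5 it had 26 and 0 reads in KO, against 1 and 2 in WT.

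The order of levels per kilobase in E7.5 KO embryos was Tdgf1, Smad4, Foxh1, Lefty2, Acvr2b, Lefty1, Smad2, Nodal, Acvr2a and Gdf3. In WT it was the same but for Nodal, at 9.77 ± 2.95 RPKM, standing above Smad2, at 9.43 ± 0.90 RPKM, 2 neighbours whose libraries overlapped. In KO the libraries of Foxh1 and Lefty2, of Acvr2b and Lefty1, and of Smad2 and Nodal overlapped, and in WT those of Smad4 and Foxh1 and all neighbours from Lefty2 to Smad2. In the sorted cells Smad4, Acvr2b and Smad2 led, and Acvr2a stood below Foxh1 at E8.5 and, in KO, at E9.5. At E8.5 Smad4 averaged 42.6 ± 7.3 RPKM and Acvr2b 37.1 ± 9.2 RPKM in KO (SD, n = 4), against 34.9 ± 11.8 and 53.5 ± 10.4 RPKM in WT (n = 3), and these neighbours overlapped in both genotypes. At E9.5 Smad4 led with 9.19 ± 0.65 RPKM in KO and 59.6 ± 0.4 RPKM in WT (SD, n = 2 each).

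At E7.5 no member passed the threshold, and each of the 9 that could be tested had a positive log2 fold change. Their median was 0.54, against −0.01 over all 12492 genes tested. Lefty2, Acvr2a, Acvr2b, Smad2 and Smad4, 5 of the 9, lay higher in both KO libraries than in both WT libraries, as did 16.1% of all genes tested. The percentage of genes called was 0 for limma at this stage and 0 for edgeR on recovered reads, with 31 genes (0.248%) called by DESeq2, none of them a member. At an unadjusted p below 0.05, limma took 385 genes (3.08%), of which 2 were members, Lefty2 and Smad4. Bulk values of this kind cannot tell fewer cells of a type from less RNA per cell.

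Among the ligands, Nodal (chr10:61417972-61425338, plus strand) had 249 and 87.3 normalised counts in KO1 and KO2, against 160.2 and 119 in WT1 and WT2. The KO libraries held both the highest and the lowest value. The log2 fold change was 0.09 ± 0.51 (SE, limma adjusted p = 1.0), and it became −0.66 without KO1 and −0.12 without WT2. Gdf3 (chr6:122605403-122610087, minus strand), a ligand of the same pathway, had 6 and 2 reads in KO and 2 and 12 in WT and was too low to test.

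The inhibitors are neighbours on the plus strand of chromosome 1, Lefty2 at chr1:180893108-180899103 and Lefty1 at chr1:180935022-180938400. Lefty2 had 497 and 1159 normalised counts in KO1 and KO2, against 493 and 222 in WT1 and WT2. KO2 stood well above the others, and KO1 exceeded WT1 by less than the counting error of either library, whose 95% intervals were 321 to 396 reads in KO1 and 651 to 756 in WT1. The log2 fold change was 1.19 ± 0.51 (SE), with an unadjusted p of 0.0485 and a limma adjusted p of 1.0, and it ranged from 0.58 to 1.80 as each library was left out. Lefty1 had 186 and 303 normalised counts in KO1 and KO2, against 46.4 and 280.2 in WT1 and WT2. WT2 lay inside the KO range and WT1 far below it. The log2 fold change of 1.05 ± 0.75 (SE, limma adjusted p = 1.0) became −0.24 without WT1. In the count tests Lefty1 was lower, at 0.62 in edgeR and 0.57 in DESeq2, while Lefty2 was at 1.20 and 1.19.

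The ratio of Lefty1 plus Lefty2 reads to Nodal reads does not depend on the scaling of a library. It was 2.74 in KO1 and 16.7 in KO2, against 3.37 in WT1 and 4.21 in WT2. One KO library lay below both WT libraries and the other above them. The mean log2 ratio was 0.85 higher in KO (exact permutation test, two-sided, p = 1, where 2 against 2 libraries cannot go below 0.333), and the difference was −0.46 without KO2. The libraries differed in tissue markers in the same samples. Summed epiblast markers (6 genes, none at 0 in all libraries) were 22623 and 7498 in KO1 and KO2, against 17109 and 9130 in WT1 and WT2, which is the order of Nodal across the 4 libraries. Dnmt3b made up most of this sum, and Nanog and Fgf5 were highest in WT2. Cer1, a secreted Nodal antagonist of the anterior endoderm, was at 168 in KO1 and 2393 in KO2, against 172 in WT1 and 714 in WT2. KO2 carries the code number 237 in the labels and the other 3 libraries 239. The part of these markers in the Nodal and Lefty values was not tested.

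**Figure D2:**
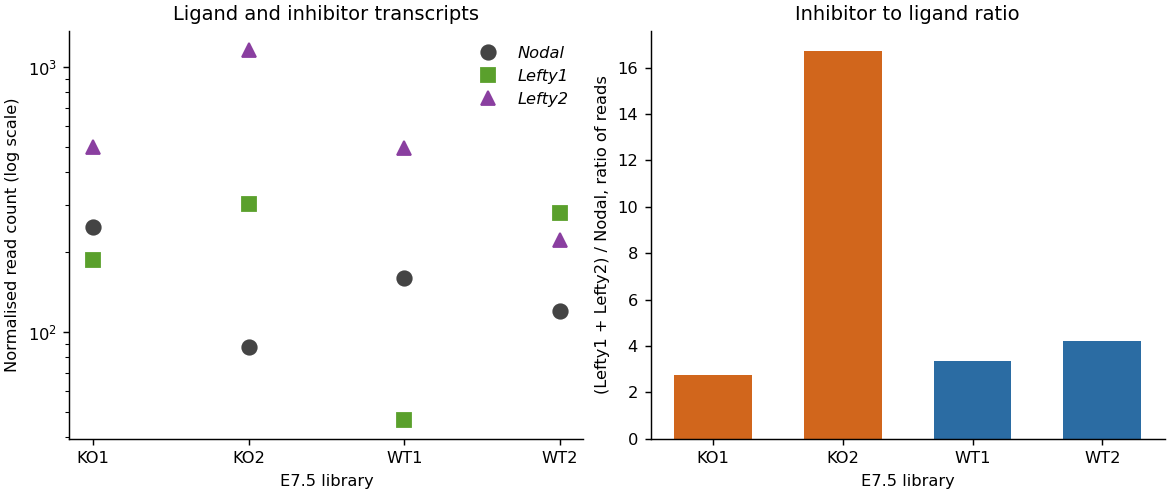
Left, normalised read counts (log axis) of Nodal, Lefty1 and Lefty2 in each E7.5 library; right, the ratio of Lefty1 plus Lefty2 to Nodal reads, KO in orange and WT in blue. KO2, at 16.7, had the highest ratio, and KO1, at 2.74, the lowest.

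Tdgf1 (chr9:110939603-110946158, minus strand) had 3035 and 5337 normalised counts in KO1 and KO2, against 2904 and 4359 in WT1 and WT2, a log2 fold change of 0.18 ± 0.38 (SE, limma adjusted p = 1.0). The groups overlapped, and the change became −0.23 without KO2 and −0.12 without WT1. The type II receptor Acvr2a (chr2:48814109-48903269, plus strand) had 163 and 159 normalised counts in KO, against 149 and 121 in WT, and Acvr2b (chr9:119402118-119434995, plus strand) had 683 and 566 in KO, against 556 and 275 in WT. Neither pair of groups overlapped, but for both genes KO2 and WT1 lay close together and WT2 apart from them. Acvr2a shares 446 exon bases with Orc4 on the opposite strand, and the library kit does not keep strand, so reads there cannot be told apart.

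Among the transducers, libraries of 1 genotype lay close together. Smad4 (chr18:73639009-73703780, minus strand), the common partner Smad, had 2645 and 2469 normalised counts in KO, against 1689 and 1417 in WT. The log2 fold change of 0.72 ± 0.28 (SE) had an unadjusted p of 0.0336 and a limma adjusted p of 1.0, and it stayed between 0.60 and 0.85 as each library was left out. Smad2 (chr18:76241580-76310963, plus strand), a receptor-activated Smad, had 873 and 797 in KO, against 571 and 573 in WT, a log2 fold change of 0.54 ± 0.27 (SE, limma adjusted p = 1.0). For both Smads the gap between the groups was larger than the spread within either. The ratio of Smad4 to Smad2 per kilobase was 7.17 and 7.32 in KO, against 7.0 and 5.85 in WT. Foxh1 (chr15:76668225-76669948, minus strand) had 584 and 739 normalised counts in KO, against 660 and 369 in WT, overlapping groups with a log2 fold change of 0.41 ± 0.36 (SE, limma adjusted p = 1.0) that became −0.01 without WT2.

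**Figure D3:**
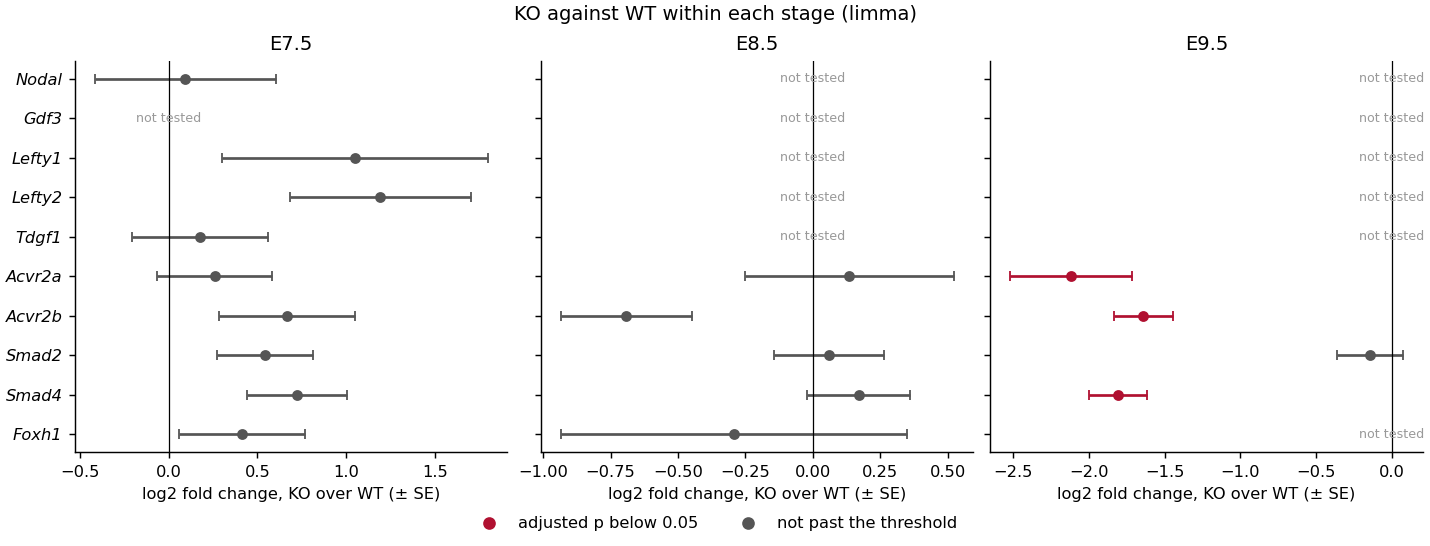
Log2 fold change of KO over WT with its standard error for each pathway gene at each stage, red where the limma adjusted p was below 0.05; genes under the minimum mean are marked not tested. No gene was called at E7.5 or E8.5, and Acvr2a, Acvr2b and Smad4 were lower at E9.5.

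A wider list of 50 pathway genes was read in the same fit. At E7.5, 42 could be tested and none was called; 29 had a positive log2 fold change, with a median of 0.52. All 8 target genes had positive values, with a median of 0.74, and none passed the threshold. Only 3 of the 8 lay higher in both KO libraries than in both WT libraries. For Gsc, T, Sox17, Lhx1 and Mesp1 the groups overlapped, and Lhx1 ranged from 117 to 720 in KO, against 148 to 183 in WT. The smallest unadjusted p belonged to Pmepa1, an intracellular negative regulator of the pathway, with 444 and 387 normalised counts in KO, against 174 and 131 in WT (log2 fold change 1.45 ± 0.31 SE, unadjusted p = 0.00188, limma adjusted p = 0.909). Mixl1, a homeobox factor of the primitive streak, had 1652 and 2073 in KO, against 1053 and 609 in WT (1.21 ± 0.34 SE, limma adjusted p = 1.0). Gata6, an endoderm factor, had 306 and 727 in KO, against 230 and 204 in WT. Furin, a convertase that cleaves the Nodal precursor, had 470.4 and 412 in KO, against 288 and 168 in WT. Both had a limma adjusted p of 1.0.

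The remaining genes with the 2 smallest p-values of their role at E7.5 lay on both sides of 0. Inhba, which encodes an activin subunit, had a log2 fold change of 2.28 ± 1.08 (SE), with 97.4 and 73.7 normalised counts in KO, against 64.7 and 3.77 in WT. Tgfb2 was at −1.15 ± 0.68, and the receptors Tgfbr3 and Tgfbr2 were at −0.08 ± 0.32 and −0.07 ± 0.59. The inhibitors Tmeff1 and Fstl3 were at 0.64 ± 0.29 and 0.83 ± 0.45, the regulator Smurf2 at 0.63 ± 0.31, the streak factor Eomes at 0.56 ± 0.27 and the endoderm factor Sox17 at 0.85 ± 0.46 (all SE). The convertase Pcsk5 had 352 and 285 normalised counts in KO, against 580 and 64.1 in WT; it was at 0.71 ± 0.86 in limma but at −0.04 in edgeR and −0.03 in DESeq2. All of these had a limma adjusted p of 1.0. Summed streak and mesoderm markers (6 genes, 4 of them also on the wider list, none at 0 in all libraries) were 3999 to 4621 in KO and 2248 to 2814 in WT, and summed trophoblast markers (6 genes, none at 0 in all) were 27222 to 48782 in KO and 5377 to 9448 in WT. Of the streak markers, Mixl1, Eomes and Fgf8 lay higher in both KO libraries than in both WT libraries, while T, Mesp1 and Wnt3 overlapped. Wnt3 was at 134 and 135 in KO, against 136 and 112 in WT, and T at 154 and 178, against 174 and 118. Prl3d1 made up most of the trophoblast sums, while Ascl2 was at 206 and 194 in KO, against 251 and 209.8 in WT. Markers of the uterine lining (5 genes, none at 0 in all) summed to 6291 to 6760 in KO and 8448 to 10110 in WT, with WT2 unlike the other libraries. Prl8a2 was at 5952 and 5925 in KO, against 6897 in WT1 and 294 in WT2, whereas Prss29 was at 6.96 and 2.40 in KO, against 139 in WT1 and 6058 in WT2. The part of these tissues in the positive values was not tested.

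In the sorted E8.5 cells 5 members could be tested, Acvr2a, Acvr2b, Smad2, Smad4 and Foxh1, and none passed the threshold. The share of genes called by limma was 0, by edgeR 0, and DESeq2 called 28 genes (0.228%), no member among them; at an unadjusted p below 0.05 limma took 742 genes (6.05%), Acvr2b being 1 of the 5 members. The member nearest to a difference was Acvr2b, with 1313, 1173, 1206 and 2166 normalised counts in KO1 to KO4, against 2217, 2322 and 2326 in WT1 to WT3. Each KO library lay below each WT library, as for 2.82% of all genes tested, and KO4 lay just below WT1. The log2 fold change was −0.69 ± 0.24 (SE), with an unadjusted p of 0.0172 and a limma adjusted p of 0.807. The authors' deposited table lists it at −0.64 with an adjusted p of 0.596.

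KO4 shares the code number 169 with WT2, and these libraries differed little, at 2166 and 2322. With the codes 163 and 169 set against the others as a block the log2 fold change was −0.52 (limma adjusted p = 0.467), and without KO1 and KO2, which share code 128, it was −0.50 (limma adjusted p = 1.0). The fit with the replicate number as a block has no WT partner for KO4, so that KO4 adds nothing to the difference; there the change was −0.90 with a limma adjusted p of 0.0139, among 5.53% of genes called. Without KO4 and without a block it was −0.90 with a limma adjusted p of 0.259. Over all 21 alternatives at this stage it stayed between −0.90 and −0.50, with adjusted p-values from 0.0139 to 1.0.

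The balance of the 2 receptors differed more between libraries than between genotypes. The ratio of Acvr2b to Acvr2a per kilobase was 8.48, 8.91, 8.09 and 28.8 in KO1 to KO4, against 24.9, 30.7 and 11.1 in WT1 to WT3. KO4, WT1 and WT2 formed a high set and the other 4 a low set. The same 3 libraries had values that fell with exon length relative to the stage mean (Spearman −0.381, −0.401 and −0.361 across genes, which are not independent replicates), while the other 4 lay between −0.0005 and 0.442. Acvr2a is the longer gene, with 5686 exon bases against 3928 in Acvr2b. Acvr2a itself had 224, 190.5, 216 and 109 normalised counts in KO, against 129, 109 and 302 in WT, with a log2 fold change of 0.13 ± 0.39 (SE, limma adjusted p = 0.972) that was −0.34 with the code block and −0.15 without WT2. The part of the length trend in these ratios was not tested.

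Smad4 at E8.5 had 1639, 1635, 1557 and 1388 normalised counts in KO, against 1282, 1254 and 1631 in WT. WT3 lay among the KO libraries and the other WT libraries below them, and the log2 fold change was 0.17 ± 0.19 (SE, limma adjusted p = 0.915). Smad2 had 804, 854, 699 and 973 in KO, against 664, 823 and 913 in WT, with groups that overlapped almost wholly (0.06 ± 0.20 SE, limma adjusted p = 0.980). Foxh1 had 54.9, 91.6, 186 and 19.7 in KO, against 93.5, 49.1 and 115 in WT. Its spread among KO libraries exceeded any difference between the genotypes (−0.29 ± 0.64 SE, limma adjusted p = 0.961), and the sign was positive in edgeR, at 0.08, and in DESeq2, at 0.04.

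Traces of the early genes were left in a few E8.5 libraries. Tdgf1 had 34 reads in KO3 (95% exact Poisson interval 23.5 to 47.5), 2 in WT1 and 0 in the other 5 libraries. Lefty2 had 5 reads in KO3, with 0 in the other 6, and Gdf3 had 1 read, also in KO3. Lefty1 had 1, 1, 0 and 2 reads in KO1 to KO4, against 3, 0 and 0 in WT1 to WT3. KO3 and WT1 were also the libraries with the highest summed markers of lateral plate and cardiac mesoderm (4 genes, Tbx5 at 0 in every library), 162 in KO3, against 88.1 in WT1, with 17.7 to 36.0 in the other KO libraries and 16.6 and 23.3 in the other WT libraries. Nkx2-5 made up most of both sums, at 99.2 in KO3 and 71.8 in WT1, and Hand1 was also highest in these libraries. Foxf1 did not follow. At 7.22 in KO3 it was level with KO1, at 7.05, and at 5.42 in WT1 it lay below KO1 and KO4. KO3 likewise had the highest summed visceral endoderm markers, 396, against 56.7 to 122 in the other 6 libraries. Hhex, Rbp4, Ttr, Afp and Cer1 were highest in KO3, with Hhex, at 179, Rbp4 and Ttr making up most of the sum. The list did not run together, since Amn was lowest in KO3, at 2.41, and Apoa1, at 13.2, lay below KO4, WT1 and WT2. Cubn was not highest in KO3 either. Pou5f1, an epiblast marker, was highest in KO3, at 67.3, but no other epiblast marker was. The part of such cells in the Tdgf1 and Lefty2 reads was not tested.

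None of the 31 other pathway genes tested at E8.5 was called; 14 had positive and 17 negative log2 fold changes, with a median of −0.02 against −0.03 over all genes. Fst, which encodes the activin-binding protein follistatin, had 647, 685, 509 and 386 normalised counts in KO1 to KO4, against 245, 385 and 165 in WT1 to WT3. Each KO library lay above each WT library, as for 3.71% of all genes tested, KO4 and WT2 all but level, and the log2 fold change was 1.12 ± 0.31 (SE, unadjusted p = 0.00486, limma adjusted p = 0.777). Tmeff1, a membrane protein that binds the Cripto co-receptor, had 1313, 1508, 1263 and 1558 in KO, against 1948, 2067 and 2184 in WT (−0.55 ± 0.19 SE, limma adjusted p = 0.807), without overlap. Goosecoid (Gsc), a homeobox target of the pathway, had 12.5, 13.5, 19.8 and 11.6 in KO, against 52.8, 17.2 and 46.9 in WT (−1.26 ± 0.47 SE, limma adjusted p = 0.807). Tgif2, a corepressor that binds Smads, was at −0.63 ± 0.26 (SE, limma adjusted p = 0.807).

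The remaining genes with the 2 smallest p-values of their role at E8.5 had changes at most about 2 times their standard error. The inhibitory Smad7 was at 0.87 ± 0.44, the ligands Tgfb3 and Tgfb2 at 0.997 ± 0.53 and 0.23 ± 0.34, and the receptors Tgfbr1 and Tgfbr2 at 0.34 ± 0.38 and 0.30 ± 0.39 (log2 fold change ± SE). The convertases Pcsk5 and Pcsk6 were at 0.33 ± 0.39 and 0.16 ± 0.34, the endoderm factor Foxa2 at 0.66 ± 0.47, the cofactor Trim33 at −0.55 ± 0.26 and the Smad anchor Zfyve9 at −0.28 ± 0.59. Their limma adjusted p-values lay between 0.815 and 0.960. Summed primitive erythroid markers (5 genes, none at 0 in all libraries) were 16837, 26131, 12.03 and 1084 in KO1 to KO4, against 2.71 to 3.69 in WT. KO1, KO2 and, at a lower level, KO4 thus held erythroid transcripts that were almost absent from the WT libraries. Their part in the values of Acvr2b and Fst was not tested.

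In the Sox10+ cells at E9.5, both type II receptors and Smad4 fell. Of 4 members tested, 3 were called lower in KO and none higher, against 23.0% of all 12000 genes called lower and 24.5% called higher. The median log2 fold change of the 4 was −1.72, against −0.14 over all genes. Smad4, Acvr2b and Acvr2a lay lower in both KO libraries than in both WT libraries, as did 41.7% of all genes tested. With 47.5% of genes called in either direction, a call at this stage does not by itself set a gene apart.

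Smad4 had 422 and 524 normalised counts in KO, against 1628 and 1666 in WT. It was 3.50-fold lower in KO (log2 fold change −1.81 ± 0.19 SE, limma adjusted p = 0.00228). Acvr2b had 330.4 and 316 in KO, against 1064 and 958 in WT, and was 3.12-fold lower (−1.64 ± 0.19 SE, limma adjusted p = 0.00297). Acvr2a had 55.9 and 45.9 in KO, against 178 and 280.1 in WT, and was 4.34-fold lower (−2.12 ± 0.40 SE, limma adjusted p = 0.0113). In each case the KO libraries lay close together and far from WT. The calls rest on both WT libraries. Without WT1 the adjusted p-values of Smad4, Acvr2b and Acvr2a were 0.0526, 0.0759 and 0.109, and without WT2 they were 0.0629, 0.0764 and 0.237 (limma, with the lone WT library assumed to vary like the KO group), with the direction kept.

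Smad2 had 609 and 802 normalised counts in KO, against 735 and 811 in WT. The groups overlapped, and the log2 fold change was −0.14 ± 0.22 (SE, limma adjusted p = 0.603). Smad2 and Smad4 thus differed in their relation. The ratio of Smad4 to Smad2 per kilobase, which no library scaling moves, was 1.64 and 1.54 in KO, against 5.24 and 4.86 in WT. In KO and WT at E7.5 it had been 5.85 to 7.32, and at E8.5 it was 3.37 to 5.27 in KO and 3.60 to 4.57 in WT. Whether Smad2 changed depends on the scaling. With all libraries scaled to the same read total, which moves the median of all genes by −0.87, Smad2 was at −1.03 (limma adjusted p = 0.00837). Under that scaling 55.9% of genes were called, 75.8% of them lower, against 48.4% as deposited, and Smad4, Acvr2b and Acvr2a were at −2.70, −2.53 and −3.0.

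The E9.5 groups also differed in how values ran with gene length. Relative to the stage mean, values fell with exon length in KO (Spearman −0.447 and −0.531 across genes) and climbed with it in WT (0.551 and 0.605). With genes put in 10 bins of length, the median log2 fold change was 2.14 in the shortest bin and −1.60 in the longest. Smad4 and Acvr2b, with 3712 and 3928 exon bases, lie in a bin with a median of −0.27, where 23.9% of genes were called lower, and both were below its lower quartile of −1.24. Acvr2a, with 5686 bases, lies in a bin with a median of −0.84 and 31.8% called lower. Smad2, with 8781 bases, lies in a bin with a median of −1.32 and was above its upper quartile of −0.41.

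With a trend over exon length removed from each library, 28.6% of genes were called. Smad4 was then at −1.81 (limma adjusted p = 0.00824), Acvr2b at −1.53 (limma adjusted p = 0.00898) and Acvr2a at −1.37 (limma adjusted p = 0.0432), and all 3 stayed past the threshold. Smad2 turned to 1.11 (limma adjusted p = 0.0605).

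**Figure D4:**
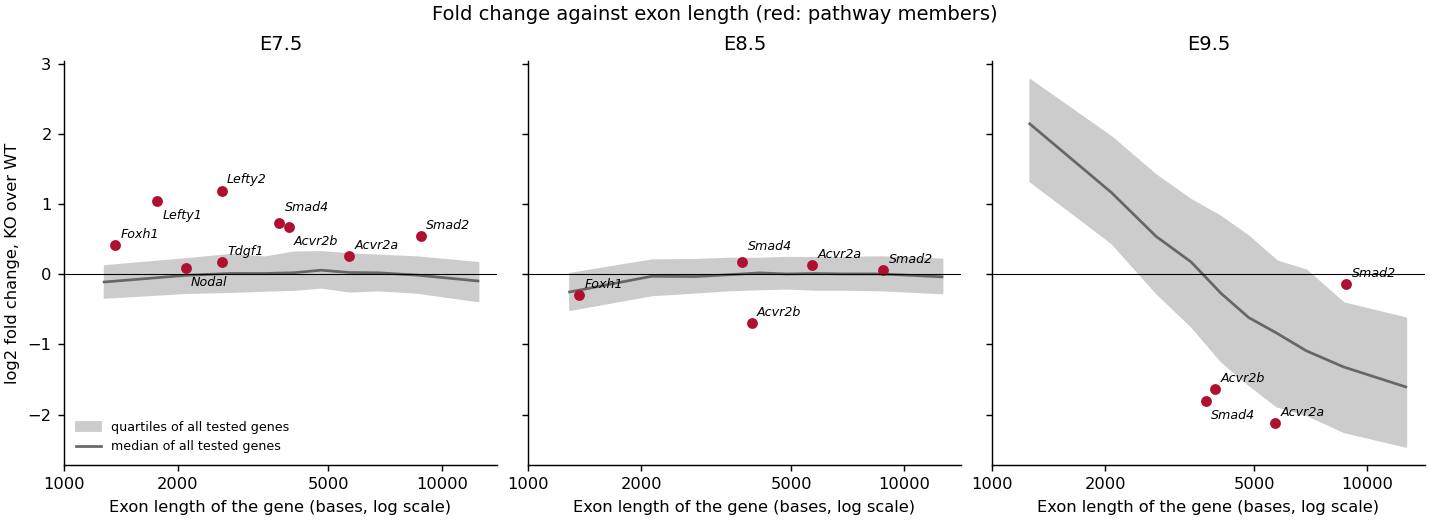
Log2 fold change of KO over WT against exon length (log axis); the line and band are the median and quartiles of all tested genes in 10 bins of length, and the red points are the pathway genes. At E9.5 the median ran from 2.14 in the shortest bin to −1.60 in the longest, with Smad4, Acvr2b and Acvr2a below the band and Smad2 above it.

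Genotype and code number cannot be told apart at E9.5, where both KO libraries carry code 171 and both WT libraries code 209. Summed markers of migratory crest (6 genes, none at 0 in all libraries) were 1292 and 2832 in KO, against 3587 to 3753 in WT, but the members did not run together. Sox9, at 209 and 457 in KO, against 1506 and 1359 in WT, and Ets1, at 149.9 and 148 in KO, against 648 and 845 in WT, were lower, while Sox10, Foxd3, Tfap2a and Tfap2b overlapped between the groups, with Sox10 and Foxd3 highest in KO2. Primitive erythroid markers (5 genes) summed to 271830 in KO1 and 262 in KO2, against 1.01 and 12.1 in WT, and visceral endoderm markers (8 genes, Cer1 at 0 in every library) to 671 and 1766 in KO, against 25.7 and 26.3 in WT. Ttr, Apoa1 and Rbp4 made up nearly the whole of the KO visceral endoderm sums, Afp and Cubn were at or near 0, and Amn was at 0 and 5.10 in KO, against 9.11 and 8.58 in WT. The part of other cell types in the lower values of Smad4, Acvr2b and Acvr2a was not tested.

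Of the 30 other pathway genes tested at E9.5, 9 were called, 3 higher and 6 lower, against 47.5% of all genes in either direction. The median of the 30 was −1.27. Calls at this stage ran with exon length, with 71.2% of genes called higher in the shortest bin and 44.9% called lower in the longest. With the length trend removed, values of single genes are given here for the members only, so the part of gene length in these 9 calls was not assessed. The type I receptor Tgfbr1 fell most, with 83.4 and 23.8 normalised counts in KO, against 587 and 1090 in WT (17.5-fold lower, log2 fold change −4.13 ± 0.66 SE, limma adjusted p = 0.00682). It was 1 of 3 receptors tested. Both inhibitors that were called fell. Tmeff1 had 614 and 612 in KO, against 1457 and 1769 in WT (2.62-fold lower, limma adjusted p = 0.00401), and Nomo1, a membrane protein known to antagonise Nodal in zebrafish, had 158 and 37.4 in KO, against 511 and 694 in WT (7.63-fold lower, limma adjusted p = 0.0211). The convertases Pcsk5, at −2.09 ± 0.39, and Furin, at −1.71 ± 0.54, fell, with limma adjusted p-values of 0.0107 and 0.0493. Furin's call was lost in edgeR (adjusted p = 0.0505) and DESeq2 (adjusted p = 0.0695).

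The intracellular negative regulators split. Drap1, a corepressor that binds Foxh1, rose to 3093 and 3332 normalised counts in KO, against 463 and 419 in WT (7.28-fold higher, limma adjusted p = 0.000544). Pmepa1 rose to 183 and 109 in KO, against 18.2 and 12.6 in WT (8.78-fold higher, limma adjusted p = 0.00855). Ski, a corepressor that binds Smads, fell to 125 and 68.0 in KO, against 291 and 436 in WT (3.84-fold lower, limma adjusted p = 0.0166), and the other 7 regulators did not pass the threshold. The 1 target gene that reached the minimum mean of 10, Foxa2, was called higher, with 18 and 124 reads in KO, against 3 and 0 in WT (log2 fold change 5.02 ± 1.45 SE, limma adjusted p = 0.0382). KO2 held most of the KO reads. Foxa2 reached that minimum only through the KO libraries, at 19.0 and 211 normalised counts, against 3.04 and 0 in WT. The group where it was high thus also brought it into the test. No ligand or transducer of 4 each was called. Their smallest p-values belonged to Mstn (−1.24 ± 0.69), Tgfb3 (−1.20 ± 0.77), Ep300 (−2.40 ± 0.83) and Smad3 (−2.66 ± 1.01), with adjusted p-values of 0.188, 0.243, 0.0616 and 0.0785 in limma; DESeq2 called Ep300 and Smad3 lower, with adjusted p-values of 0.0400 and 0.0475. The receptor Tgfbr3 was at −3.26 ± 1.56 (SE, limma adjusted p = 0.137). Without WT1 or without WT2 the 9 calls fell to 1 each, and without KO1 there were 23.

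**Figure D5:**
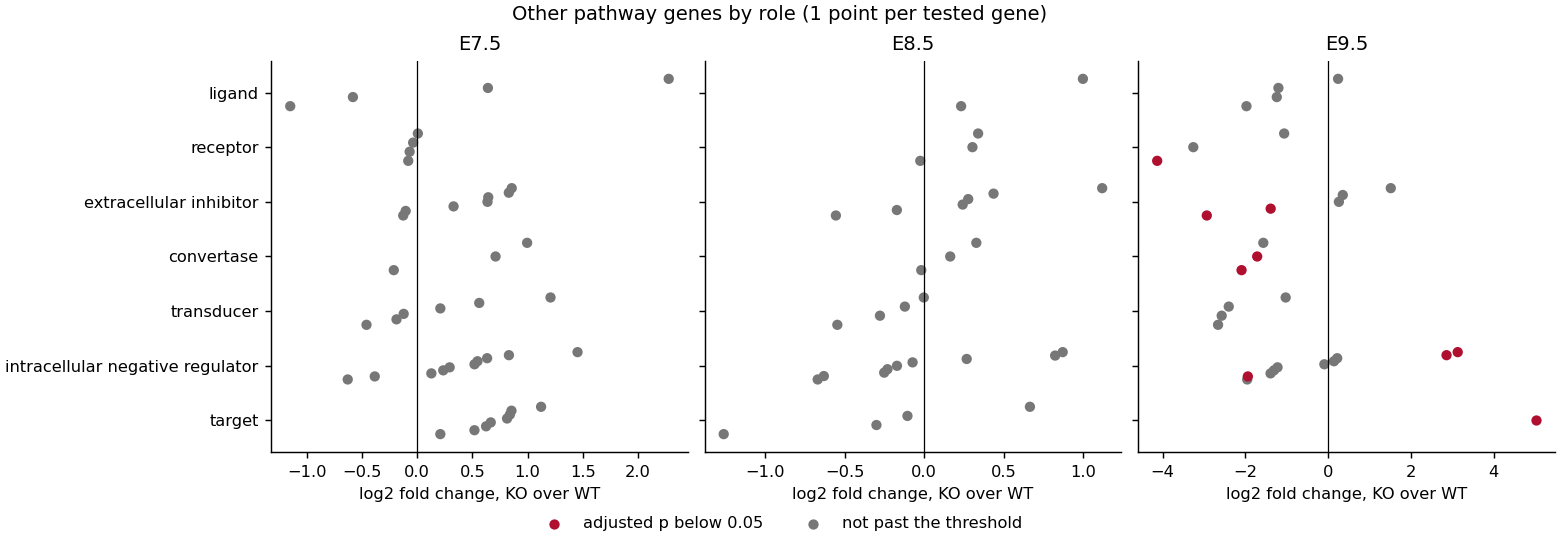
Log2 fold change of KO over WT for each tested gene of the wider pathway list, by role and stage, red where the limma adjusted p was below 0.05. All 8 targets lay right of 0 at E7.5, 3 of them without overlap of the groups and none called. At E9.5, 3 genes were called higher and 6 lower. Of these, Foxa2 reached the minimum mean only through its KO libraries.

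Over the 15 libraries, the genes whose levels ran most like those of the early members were found by Pearson's r of log2(RPM + 1) among 13858 genes. For Nodal they were Rhox2a (0.998), Slc34a2 (0.997) and Pnma5 (0.996), and for Tdgf1 they were Galnt6, Apom and Hkdc1 (all 0.996). For Lefty1 they were Them5 (0.994), 5730460C07Rik (0.992) and Trpc5os (0.991), and for Lefty2 Scin (0.998), 1600014K23Rik (0.998) and Procr (0.997). These values mostly mirror presence in the 4 whole-embryo libraries and near absence in the 11 sorted ones, which the points share, and are given as a description. Gdf3 was too low for this comparison.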

How the data were processed

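Per the labels' protocols, RNA was turned into cDNA with the unstranded SMART-Seq v4 kit and tagged by Nextera XT. The submitters' processing notes name STAR 2.7.0f, FastQC 0.11.5 and the build mm10. Which counter, annotation and normalising tool were used is not given in the sources used here. Deposited by the authors was 1 table of normalised signal per stage, gene counts divided by 1 factor per library. They also deposited lists of selected genes with log2 fold changes, scores and p-values, used here only where named. In every library 100% of values were whole multiples, within 0.01 of a read, of the worth of 1 read, which gave whole reads and the depth. Intervals are 95% exact Poisson intervals and floors are 3 reads, both covering counting error only.

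Each stage was fitted alone with limma 3.58.1 (R 4.3.3, trended empirical Bayes, two-sided) on log2(value + 1). The recovered reads were also tested with edgeR 4.0.16 and DESeq2 1.42.0. Python 3.11.15, pandas 2.3.3 and numpy 2.4.6 made the summaries, and matplotlib 3.10.9 the figures. The fit was tested on simulated data. Positions, exon lengths and 3′UTRs are from GENCODE M21, and 96.3% of tested genes had a length. The members, the wider list and the marker lists were chosen with earlier results of these data known. Named are all members, and of the wider list each called gene and the 2 with the smallest p per role and stage; Cer1 as an example of a marker was chosen after its values were seen. Alternatives tried were pseudocounts of 8 and 0.1, a minimum mean of 100 or none, a threshold of 0.1, quantile and TMM scaling, the count tests, blocks for replicate and code numbers, a loess length trend (span 0.3) and each library left out. Scaling to equal read totals and a crossed pairing were added after the data were seen. Same-numbered libraries did not deviate together at each stage, so the numbers were not taken to pair them.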

Additional observations from a re-analysis of the deposited data

Results flagged for a closer look

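In the E8.5 KO group 2 of 6 gene values examined, as groups of 4 libraries, had a library standing apart from the rest by its gap relative to the range; chance gives about 1 such group in 20. Tdgf1 was 20.4 normalised counts in KO3 and 0 in the other 3 KO libraries, and Acvr2b was 2166 in KO4, against 1173 to 1313 in the other 3. The rate of 1 in 20 assumes a normal spread of values. It does not apply to Tdgf1, since any gene with reads in 1 of 4 libraries only stands apart in this way.

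For 3 genes every KO library lay above every WT library at E7.5 and below every WT library at a later stage; these differences between stages were not tested. Of 11012 genes tested at both E7.5 and E9.5, 7.45% showed the same pattern, as did 3 of the 4 members tested at both, and of 11354 tested at both E7.5 and E8.5, 0.511% did, Acvr2b among the 5 members. The log2 fold change of Acvr2a at E7.5 exceeded that at E9.5 by 2.38. That of Acvr2b at E7.5 exceeded that at E8.5 by 1.36 and that at E9.5 by 2.31. That of Smad4 at E7.5 exceeded that at E9.5 by 2.53. The stages differ in cell population as well as in age.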

How the results depend on the processing

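Depth limits Gdf3 at each stage and Nodal, Lefty1, Lefty2 and Tdgf1 in sorted cells, which had few or 0 reads there, and 2 libraries per group limit the comparisons at E7.5 and E9.5. Members called stayed at 0 at E7.5 under every alternative run, and were 0 to 3 at E9.5 as each library was left out, 4 with equal read totals and 3 under the other alternatives run. Of the other pathway genes, 0 to 1 were called at E7.5 and 1 to 23 at E9.5 as each library was left out, and at E9.5 15 were called with libraries scaled to equal read totals and 16 with the crossed pairing. At E8.5 the replicate block gave 1 member and 3 other genes. Log2 fold changes that turned sign as each library was left out ranged, at E7.5, from −0.66 to 0.84 for Nodal, −0.24 to 2.33 for Lefty1, −0.23 to 0.58 for Tdgf1 and −0.00613 to 0.83 for Foxh1; at E8.5, from −0.15 to 0.58 for Acvr2a, −0.0688 to 0.16 for Smad2 and −0.79 to 0.27 for Foxh1; and at E9.5 from −0.34 to 0.0550 for Smad2. The E7.5 difference in the log2 ratio of Lefty1 plus Lefty2 to Nodal ranged from −0.46 to 2.15. Tdgf1 at E7.5 was −0.23 with code 239 only. Acvr2a at E8.5 was −0.34 with the code block and −0.0788 without KO1 and KO2. Foxh1 at E8.5 was 0.0808 in edgeR, 0.0420 in DESeq2 and 0.27 with the replicate block, where Smad2 was −0.0188. Smad2 at E9.5 was 1.11 with the length trend removed. The causes were not tested. Equal totals moved the median log2 fold change of all genes by 0.15 at E8.5, and at E9.5 it moved by −0.14 with TMM scaling, −0.13 with no minimum, 0.10 in edgeR and 0.15 in DESeq2. Without WT1 or WT2 at E9.5, 1107 and 794 genes were called, against 5700; DESeq2 called 31 genes at E7.5 and 28 at E8.5, against 0 each by limma. Members called at E8.5 stayed at 0 except with the replicate block.

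Replicate numbers of the titles were tried as a block. Deviations of same-numbered libraries correlated at −0.117 at E7.5 and −0.171 at E9.5, and at 0.0759, −0.0248 and 0.554 for the 3 numbers shared at E8.5, where KO3 but not KO1 or KO2 correlated best with its own number. The replicate block moved the genes called to 47 at E7.5 and 678 at E8.5, against 0 each without it, and to 5722 at E9.5, against 5700. With the numbers crossed, 48 genes were called at E7.5 and 6665 at E9.5. The E8.5 and E9.5 ratios of Lefty to Nodal and their alternatives were not run, since no library there held a read of Nodal.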
